A study of Danio rerio with 58 samples.

Results

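The melanin pigment genes of the zebrafish were followed across the stages, dose rates and irradiation batches of a study of chronic gamma irradiation. The 10 listed symbols were tyr, tyrp1a, tyrp1b, dct, pmela, pmelb, mitfa, slc45a2, oca2 and slc24a5. Of these, 7 matched a gene by symbol. The other 3 were matched without their last letter and met 2 TYRP1 and 2 MITF genes, so that 11 genes of 32057 in the count tables were followed. The symbol table does not say which TYRP1 or MITF gene is the a or the b copy, and these genes are named here by the end of their Ensembl IDs: TYRP1-29204 (ENSDARG00000029204), TYRP1-56151 (ENSDARG00000056151), MITF-03732 (ENSDARG00000003732) and MITF-37833 (ENSDARG00000037833). The other IDs were ENSDARG00000039077 for tyr, ENSDARG00000006008 for dct, ENSDARG00000091298 for pmela, ENSDARG00000033760 for pmelb, ENSDARG00000002593 for slc45a2, ENSDARG00000061303 for oca2 and ENSDARG00000024771 for slc24a5.

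Black melanin is made inside melanosomes, which in the zebrafish embryo are found in the melanophores that arise from the neural crest and in the pigmented epithelium of the retina. Tyrosinase, the product of tyr, carries out the first and rate-limiting oxidation of tyrosine, and the tyrosinase-related proteins Tyrp1 and Dct act on later intermediates. Pmel forms the fibrils on which melanin is laid down, the transporters encoded by slc45a2, oca2 and slc24a5 set the ionic conditions of the melanosome, and Mitf is the transcription factor that specifies melanophores and switches on the enzymes. Fish that lack mitfa have no body melanophores, and mutants of tyr, slc45a2, oca2 and slc24a5 are pale.

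All animals were of the AB genetic background, and each sample was mRNA of a pool of entire embryos or larvae. Pools came from 3 irradiation batches (I10, I17 and I32) and were either non-exposed controls or kept under a caesium source at 0.5, 5 or 50 mGy/h from soon after fertilisation until 24, 48 or 96 hours post fertilisation (hpf). Batch I10 held controls and 0.5 mGy/h at the 3 stages. At 24 hpf it had 2 control and 3 exposed pools, later 4 and 3 (48 hpf), and finally 3 and 3 (96 hpf). Batch I17 held controls, 5 and 50 mGy/h (3, 3 and 3 pools when sampled at 24 hpf, 3, 2 and 3 pools at 48 hpf, and 3, 3 and 2 pools at 96 hpf). Batch I32 held 5 control pools and 3 pools at 0.5 mGy/h at 24 hpf. These 51 of 58 samples were used, since the authors had set 7 aside as potential outliers. The 5 pools of batch I10 at 24 hpf stood in neither clustering panel of the study and were kept. Pools at 0.5 mGy/h never shared a batch with pools at 5 or 50 mGy/h, so that dose rate and batch cannot be told apart there. The 5 and 50 mGy/h pools share their controls.

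The 51 libraries held 28278920 to 49971607 counts on genes (median 34964321). A gene was said to be called when it differed by at least 1.5-fold with an adjusted p under 0.01 in edgeR's quasi-likelihood test, the p being adjusted by Benjamini-Hochberg over all genes of the fit. Fold changes are on the log2 scale with their standard error (SE), and levels are CPM, the count of a gene scaled to a fixed library total, on 1 scale for all samples. The pools are whole animals, so that fewer pigment cells and less RNA per cell cannot be told apart, nor can melanophores and retinal pigment epithelium. Per the study's methods the clutches of many couples were mixed and each condition was kept in several dishes counted as technical replicates, so pools of 1 batch may be technical replicates of 1 irradiation, and p-values then measure only the spread between these pools.

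In 10 of the 11 genes every sample held counts (at least 63 for oca2, 80 for MITF-03732 and 3931 for pmela), so the genes were on at 24 hpf, the earliest stage sampled. MITF-37833 was the exception, with 0 to 25 counts per sample. It passed the filter on low counts in 4 of 14 fits (96 hpf of batch I17, all stages of batch I17, the 96 hpf controls and the controls of I10 and I17 at all stages), and it was called in none of them. Counts of "10 members" below leave it out where it was not tested.

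**Figure D1:**
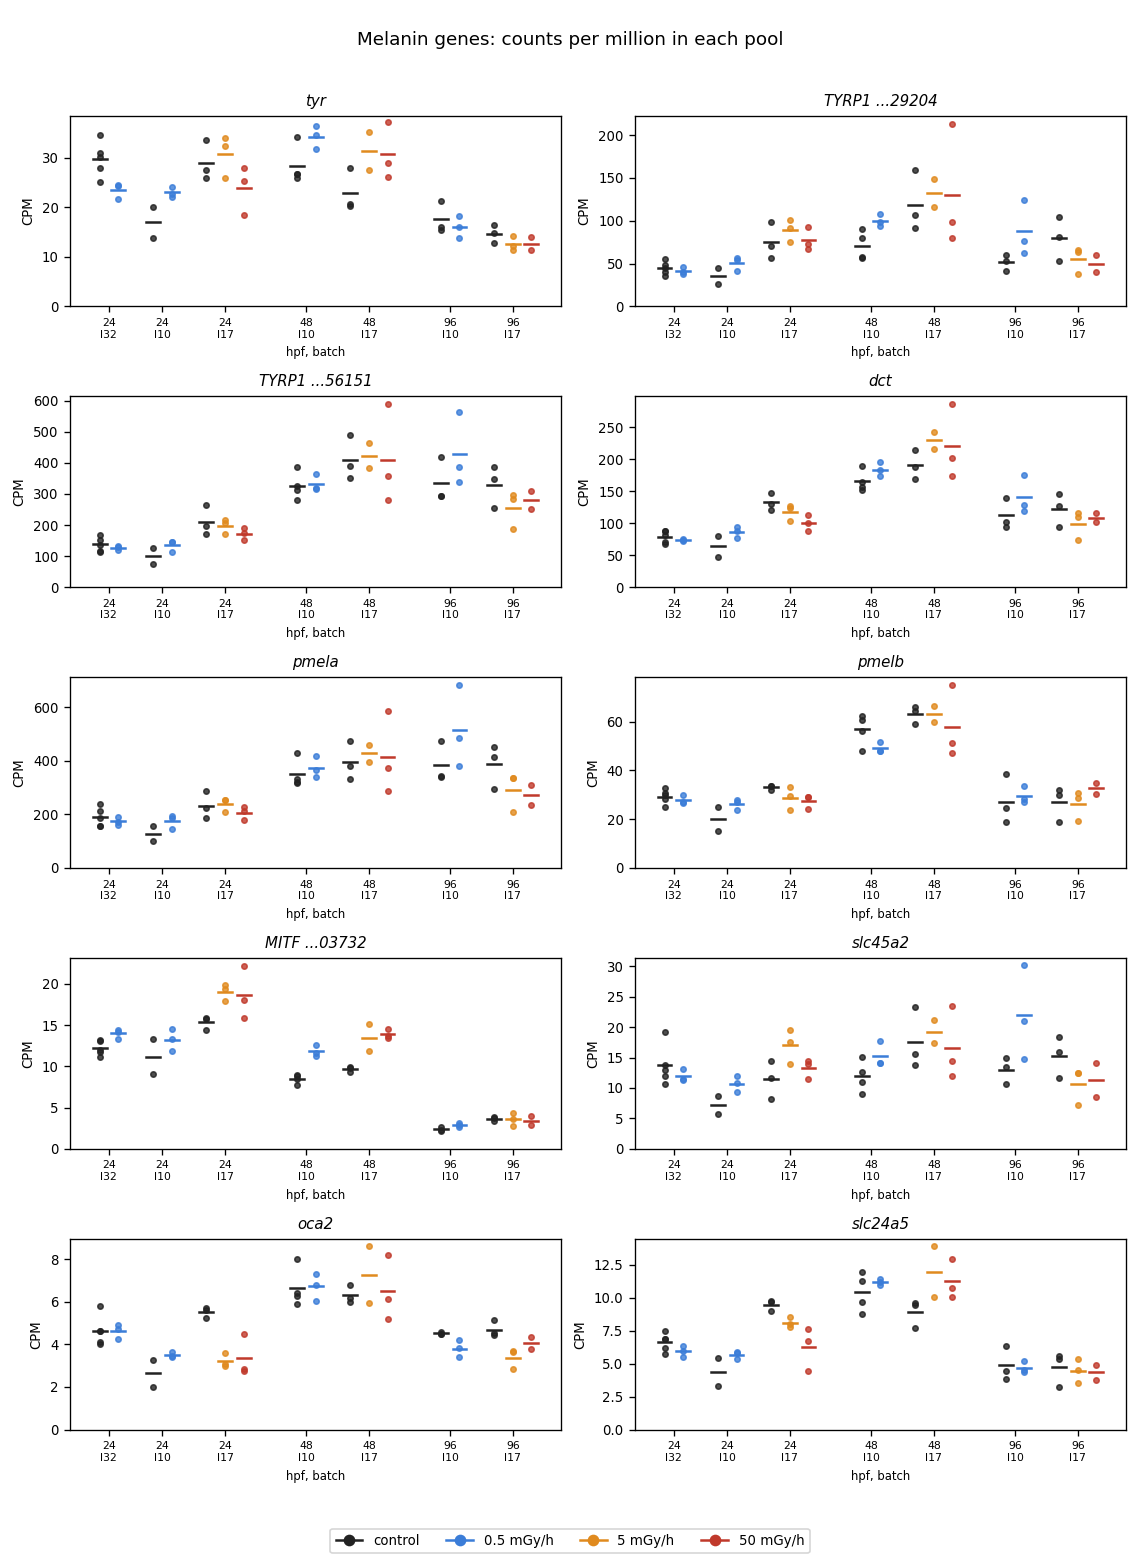
CPM (linear axis from 0) of 10 melanin genes in each of 51 pools, by stage in hours post fertilisation (hpf) and irradiation batch. Each point is 1 pool, each short bar a group mean, and colours give the dose rate; TYRP1 and MITF genes are labelled by the end of their gene ID. MITF-03732 is lower at 96 hpf than at 24 hpf in batches I10 and I17, while pmela at 96 hpf stays near its 48 hpf level in controls, and exposed and control points overlap in most groups.

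From 24 to 48 hpf most enzyme and fibril genes rose in the controls of batch I10. There 8 of 10 members were called, all of them higher, where 30% of all genes were called in either direction and 18.1% were called higher. The median log2 fold change of the members was 1.36, against 0.00 over all genes tested. In batch I17 the count was 3 of 11 with 2 higher (28.2% of all genes, 17.3% higher), and the median was 0.49. The 24 hpf controls of batch I10 were only 2 pools. Replicate 2 was the lower of them for every member, with a mean log2 deviation of -0.61 from the mean of its stage and batch.

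The tyrosinase gene tyr stood at 13.8 and 20.1 CPM in the 24 hpf controls of batch I10 and at 25.9, 26.7, 26.8 and 34.1 CPM at 48 hpf. The later pools all lay above the earlier ones, as was so for 29.4% of all genes. The change was 0.81 ± 0.17 (SE, log2 fold change, edgeR adjusted p = 0.00051). In batch I17 tyr started at 26.0, 27.5 and 33.6 CPM and stood at 20.2, 20.6 and 28.0 CPM at 48 hpf, a difference of -0.37 ± 0.18 that was not called (adjusted p = 0.10).

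The later enzymes gained more. TYRP1-56151 went from 74.5 and 126 CPM to between 281 and 388 CPM in batch I10 (1.77 ± 0.24, adjusted p = 5.8e-06) and from 170, 197 and 265 CPM to 351, 390 and 489 CPM in batch I17 (0.93 ± 0.24, adjusted p = 0.0026). It rose in both batches. In either, the later pools all lay above the earlier ones, as was so for 29.4% (I10) and 28.8% (I17) of all genes. TYRP1-29204 was called in batch I10 only (1.06 ± 0.27, adjusted p = 0.0030), its change in batch I17 being 0.63 ± 0.31 (adjusted p = 0.11). Dct, dopachrome tautomerase, went from 47.0 and 80.5 CPM to between 152 and 190 CPM in batch I10 (1.44 ± 0.21, adjusted p = 1.3e-05). In batch I17 it went from 120, 131 and 148 CPM to 169, 188 and 215 CPM (0.49 ± 0.19, adjusted p = 0.044), which was not called. The later pools all lay above the earlier ones, as was so for 28.8% of all genes.

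The fibril genes rose together in batch I10, pmela by a log2 fold change of 1.51 ± 0.23 (adjusted p = 3.0e-05) and pmelb by 1.56 ± 0.23 (adjusted p = 1.6e-05). In batch I17 pmelb rose from 31.9, 33.6 and 33.8 CPM to 58.9, 64.5 and 66.0 CPM (0.90 ± 0.19, adjusted p = 0.00052), while pmela missed the threshold (0.74 ± 0.24, adjusted p = 0.013).

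Among the transporters, oca2 and slc24a5 rose in batch I10 (1.40 ± 0.19 and 1.32 ± 0.21, adjusted p = 5.6e-06 and 3.6e-05). In batch I17 oca2 stood at 5.21, 5.60 and 5.71 CPM at 24 hpf and at 5.99, 6.15 and 6.80 CPM at 48 hpf, just above (0.17 ± 0.19, adjusted p = 0.51). Pools of 48 hpf all lay above those of 24 hpf for 28.8% of all genes in that batch. The change of slc24a5 there was -0.12 ± 0.20 (adjusted p = 0.68). The transporter slc45a2 was not called in either batch (0.80 ± 0.25 and 0.59 ± 0.27, adjusted p = 0.015 and 0.083).

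The transcription factor gene went the other way. MITF-03732 fell in batch I17, from 14.4, 15.8 and 15.8 CPM to 9.25, 9.77 and 9.87 CPM (-0.70 ± 0.15, adjusted p = 0.00064). In batch I10 its difference was -0.33 ± 0.15 (adjusted p = 0.072). The 48 hpf pools all lay below the 24 hpf pools, as was so for 33.7% of all genes.

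The difference between the batches in the 24 to 48 hpf change was tested in 1 fit of both batches. None of the 11 members was called, where 0.493% of all genes were (edgeR, 6 of the 11 and 15.2% of all genes had an unadjusted p under 0.05). The members nearest to the threshold were oca2, slc24a5 and tyr, whose changes were larger in batch I10 by 1.15 ± 0.24, 1.35 ± 0.31 and 1.10 ± 0.25 (adjusted p = 0.013, 0.022 and 0.022). These changes start from the 2 control pools of batch I10 at 24 hpf, of which replicate 2 was low for every member. For the 48 to 96 hpf change none of the 11 was called either, beside 3.13% of all genes (lowest adjusted p = 0.175, for MITF-03732, the 1 member with an unadjusted p under 0.05, beside 24.5% of all genes).

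From 48 to 96 hpf the members split. In batch I10 4 of 10 were called and in batch I17 5 of 11, all of them lower, beside 42.9% and 38.5% of all genes called in either direction and 19.7% and 17.9% called lower. MITF-03732 fell most, from 7.68 to 8.96 CPM down to 2.18, 2.26 and 2.62 CPM in batch I10 (-1.84 ± 0.15, adjusted p = 2.7e-09) and to 3.40, 3.67 and 3.87 CPM in batch I17 (-1.39 ± 0.16, adjusted p = 1.0e-07). Next came pmelb (-1.06 ± 0.19 and -1.22 ± 0.20, adjusted p = 9.3e-05 and 1.1e-05) and slc24a5 (-1.09 ± 0.18 and -0.91 ± 0.21, adjusted p = 2.8e-05 and 0.00068).

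Tyrosinase also fell in both batches, to 15.4, 15.9 and 21.3 CPM in batch I10 (-0.68 ± 0.14, adjusted p = 0.00040) and to 12.8, 14.8 and 16.4 CPM in batch I17 (-0.64 ± 0.18, adjusted p = 0.0046). In batch I17 the calls of tyr and dct (-0.62 ± 0.19, adjusted p = 0.0088) were the weakest: the count of 5 became 3 without control replicate 5 at 48 hpf, and likewise without control replicate 10 or 11 at 96 hpf. In batch I10 dct (-0.56 ± 0.17) and oca2 (-0.55 ± 0.15) had adjusted p of 0.0092 and 0.0047 and stayed short of a 1.5-fold change. Oca2 was not called in batch I17 either, where it stood at 4.45, 4.51 and 5.13 CPM at 96 hpf. These pools all lay below those of 48 hpf, as was so for 32.7% of all genes.

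In contrast, pmela, TYRP1-56151 and slc45a2 were not called between 48 and 96 hpf. The level of pmela was 316 to 428 CPM at 48 hpf and 340, 343 and 472 CPM at 96 hpf in batch I10, a difference of 0.15 ± 0.19, and -0.02 ± 0.24 in batch I17. TYRP1-56151 differed by 0.05 ± 0.19 and -0.30 ± 0.24, and slc45a2 by 0.13 ± 0.21 and -0.19 ± 0.27. The mean of TYRP1-29204 went down, from 71.1 to 51.4 CPM in batch I10 and from 119 to 79.5 CPM in batch I17. Its pools overlapped between the stages in either batch. Thus the paralogous fibril genes had different courses, pmelb falling from 48 to 96 hpf in both batches while no change of pmela was detected.

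**Figure D2:**
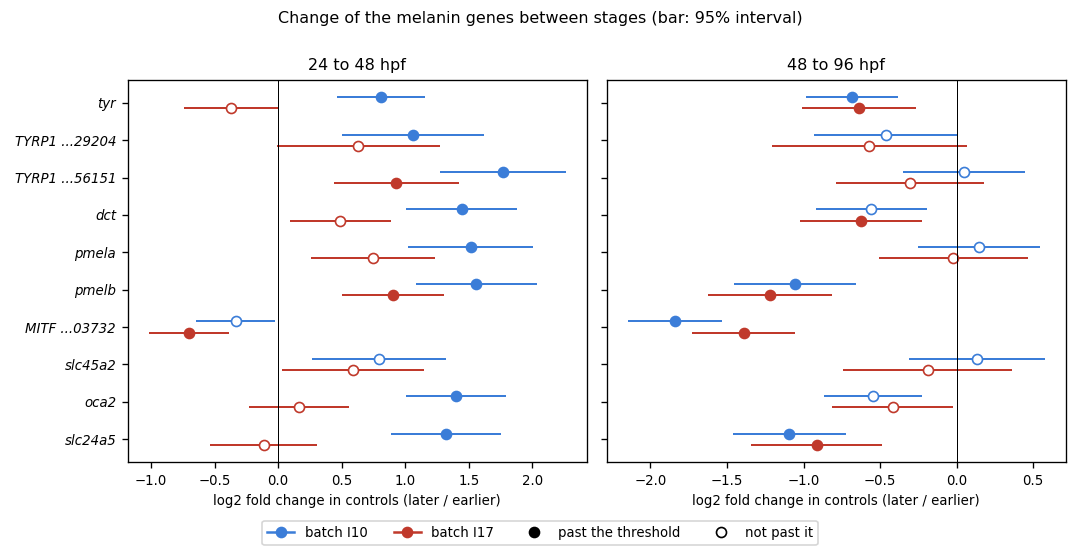
Log2 fold change of 10 melanin genes between neighbouring stages in control pools, for batches I10 and I17. Points are edgeR estimates, bars their 95% intervals, filled points are past the threshold of 1.5-fold and adjusted p under 0.01. From 24 to 48 hpf the I10 estimates lie to the right of the I17 estimates, and from 48 to 96 hpf those of MITF-03732, pmelb, slc24a5 and tyr are below 0 in both batches.

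Other pigment-cell genes were read from lists of 16 melanophore and neural crest genes, 33 genes of melanosome formation and transport, 9 iridophore, 9 xanthophore and 11 retinal pigment epithelium genes. From 24 to 48 hpf in the controls of batches I10 and I17, beside 30% and 28.2% of all genes called in either direction, 3 and 2 of 15 tested melanophore and neural crest genes were called higher and 4 and 3 lower. Of 32 melanosome genes, 2 were higher in each batch and 2 and 0 lower. Of 9 iridophore genes, 4 and 3 were higher and 1 lower in each batch. Of 9 xanthophore genes, 2 were higher in each batch and 1 and 2 lower, and of 11 retinal pigment epithelium genes 6 and 3 were higher and 1 lower in each batch. The calls of these lists went both ways, except those of the melanosome genes in batch I17. The median log2 fold changes in batches I10 and I17 were -0.19 and -0.08 for the melanophore and neural crest list, 0.15 and -0.04 for the melanosome list, 0.37 and 0.53 for the iridophore list, 0.30 and -0.36 for the xanthophore list and 0.98 and 0.50 for the retinal pigment epithelium list, beside 1.36 and 0.49 for the melanin genes.

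The retinal pigment epithelium list moved apart from the melanin genes after 48 hpf. From 48 to 96 hpf 7 of its 11 genes were called higher and 3 lower in both batches (all genes called in either direction, 42.9% and 38.5%), with median log2 fold changes of 1.54 in batch I10 and 1.76 in batch I17, where the melanin genes had medians of -0.55 and -0.57. Its summed level was 149 to 189 CPM at 48 hpf and 570 to 724 CPM at 96 hpf in the controls of batch I10, and 224 to 253 CPM and 612 to 1073 CPM in those of batch I17. The melanophore and neural crest list went from between 628 and 670 CPM to between 366 and 421 CPM in batch I10, and from between 762 and 799 CPM to between 408 and 436 CPM in batch I17. The part of either cell type in the course of the melanin genes was not tested.

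At 24 hpf the controls of the 3 batches differed in melanin genes. The median log2 difference of batch I17 over I10 was 0.999, with 8 of 10 members called higher in I17, where 9.91% of all genes were called in either direction and 3.49% higher. Dct stood at 47.0 and 80.5 CPM in batch I10, at 67.6, 70.7, 81.3, 87.2 and 88.6 CPM in batch I32 and at 120, 131 and 148 CPM in batch I17. The I17 pools lay above all others, as was so for 20.8% of all genes against I10 and 11.9% against I32. The difference was 1.10 ± 0.19 against I10 (adjusted p = 0.00070) and 0.77 ± 0.15 against I32 (adjusted p = 0.00099). For slc24a5 the controls stood at 3.31 and 5.40 CPM in batch I10, 5.77 to 7.47 CPM in batch I32 and 8.98, 9.70 and 9.74 CPM in batch I17, with no overlap between any batches. Pools of I10 all lay below those of I32 for 21.2% of all genes.

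Between I17 and I32, 2 of 10 were called, dct and TYRP1-29204 (0.77 ± 0.18, adjusted p = 0.0048), both higher in I17, beside 7.85% of all genes in either direction and 3.83% higher. Between I10 and I32, 3 of 10 were called, all lower in I10, beside 11.5% of all genes in either direction and 4.64% lower: tyr (-0.83 ± 0.16, adjusted p = 0.0014), oca2 (-0.83 ± 0.20, adjusted p = 0.0060) and slc45a2 (-0.95 ± 0.24, adjusted p = 0.0063). Batch I10 had the lowest mean of the 3 batches in all 10 members, and 8 of 10 followed the order I10, I32, I17. The exceptions were tyr and slc45a2, for which the I17 mean lay below that of I32. The shares of all genes with these orders were not counted.

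Much of this rested on control replicate 2 of batch I10, which was the lower of only 2 pools for every member (13.8 against 20.1 CPM for tyr). Without it the count between I17 and I10 was 0 in place of 8, and between I10 and I32 0 in place of 3. Without its partner, replicate 3, these counts were 9 and 5. Without control replicate 3 of batch I17 the count against I10 was 4. Between I10 and I32 the count was 1 without control replicate 5 or 6 of batch I32 and 2 without its replicate 2. Between I17 and I32 the count ranged from 1 to 4, being 4 without control replicate 2 of batch I32 and 1 without I17 replicate 3 or 4 or I32 replicate 1, 3 or 5.

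At 48 and 96 hpf no member was called between the controls of I17 and I10, beside 13.7% and 18.5% of all genes (edgeR, with 3 of 10 and 2 of 11 members and 46.5% and 48.1% of all genes at an unadjusted p under 0.05, and 1 call each by DESeq2, of TYRP1-29204). TYRP1-29204 was higher in I17 by 0.70 ± 0.19 at 48 hpf and by 0.60 ± 0.20 at 96 hpf (adjusted p = 0.012 and 0.032), and MITF-03732 by 0.60 ± 0.18 at 96 hpf (adjusted p = 0.019). There the I17 pools of MITF-03732 all lay above those used of I10, as was so for 26.0% of all genes. The I10 control set aside, replicate 12, had 3.44 CPM, within the range of the I17 pools. Of these 2 genes TYRP1-29204 was called without control replicate 5 of I10 or 7 of I17 at 48 hpf, and without control replicate 11 of I17 at 96 hpf.

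The position of a pool on the change between stages was read from all other genes. Any other difference in genes that change with the stage also moves it. For example, the controls at 48 hpf stood at 76.4% in batch I10 and at 112% in batch I17. Each pool was placed on the change of the controls between neighbouring stages in another batch, over 22236 genes without the melanin genes, with 0% at the mean of the earlier stage and 100% at that of the later stage. On the 24 to 48 hpf change of batch I10, the 24 hpf controls stood at 8.35% ± 1.44 (SD, n = 5) in batch I32 and at 25.0% ± 1.81 (SD, n = 3) in batch I17. Those of batch I10, placed on the change of batch I17, stood at -10.8% ± 5.00 (SD, n = 2). The 3 positions are not on 1 scale. The controls of batch I10 set the 0% for I32 and I17, so the positions of I10 and I17 rest on the same 2 groups of pools. In 8 of the 10 melanin genes the control means lay in the order I10, I32, I17, and the share of all genes in that order was not counted. These I10 means hold replicate 2, which was low for every member. The summed level of the retinal pigment epithelium list in the same pools was 105 to 116 CPM in I10, 138 to 161 CPM in I32 and 122 to 172 CPM in I17. The part of either in the batch differences was not tested.

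Exposure was then compared with controls within each stage and batch. None of the melanin genes was called in any of the 10 comparisons. In 102 tests of a member by edgeR, 24 had an unadjusted p under 0.05 (29 by DESeq2, which called none either), where the share of all genes at that p ran from 10.3% to 39.0% over the 10 comparisons. The lowest adjusted p was 0.021. The 95% interval lay within a 2-fold change either way in 90 of the 102 tests, and in 89 of the 100 tests without MITF-37833, the gene of few counts. The widest bounds were a 2.51-fold increase and a fall to 0.358 of the control level, and the intervals of those tests still held changes of that size.

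**Figure D3:**
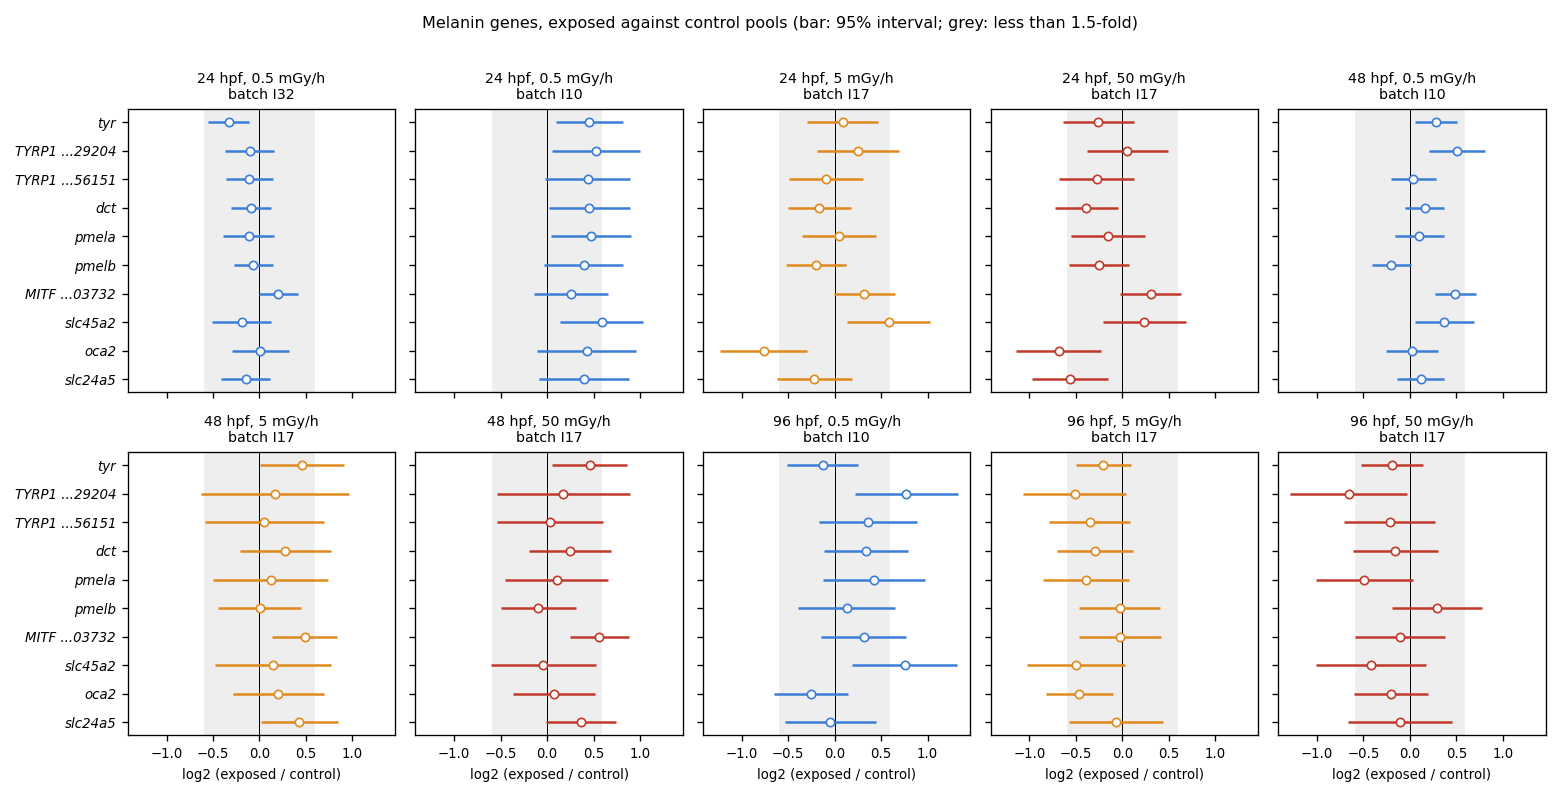
Log2 fold change of 10 melanin genes in exposed over control pools in the 10 comparisons of dose rate, stage and batch. Points are edgeR estimates, bars 95% intervals, and the grey band marks less than a 1.5-fold change. No gene passed the threshold. At 24 hpf oca2 lies below 0 at 5 and 50 mGy/h, and at 48 hpf MITF-03732 lies above 0 at the 3 dose rates.

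At 24 hpf, where 9.89% of all genes were called at 5 mGy/h and 5.88% at 50 mGy/h, 0 of 10 members were called at either dose rate (2 and 3 with an unadjusted p under 0.05, beside 39.0% and 34.7% of all genes). The member closest to a call was oca2, which encodes a melanosomal transport protein. Its level was 5.21, 5.60 and 5.71 CPM in controls, 2.99, 3.09 and 3.61 CPM at 5 mGy/h and 2.74, 2.85 and 4.50 CPM at 50 mGy/h. All 6 exposed pools lay below the 3 controls. The differences were -0.76 ± 0.22 (adjusted p = 0.021) and -0.68 ± 0.22 (adjusted p = 0.038), which would pass at an adjusted p of 0.05 but not at 0.01.

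The sodium/calcium exchanger gene slc24a5 had 8.98, 9.70 and 9.74 CPM in controls, 7.76, 8.03 and 8.52 CPM at 5 mGy/h and 4.47, 6.75 and 7.66 CPM at 50 mGy/h. The exposed pools again lay below the controls, with differences of -0.22 ± 0.19 (adjusted p = 0.42) and -0.57 ± 0.19 (adjusted p = 0.049). In the opposite direction lay MITF-03732, with 14.4, 15.8 and 15.8 CPM in controls, 17.9, 19.4 and 19.8 CPM at 5 mGy/h and 15.9, 18.1 and 22.1 CPM at 50 mGy/h (0.32 ± 0.15 and 0.30 ± 0.15, adjusted p = 0.14 and 0.17). For slc45a2 the difference was 0.58 ± 0.21 at 5 mGy/h (adjusted p = 0.056) and 0.24 ± 0.21 at 50 mGy/h (adjusted p = 0.45).

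Among the enzymes and fibril genes, dct and pmelb lay below the controls at the higher dose rate. At 50 mGy/h dct had 87.2, 101 and 113 CPM against 120, 131 and 148 CPM (-0.39 ± 0.16, adjusted p = 0.095), and pmelb lay below the controls in all 3 pools (-0.25 ± 0.15, adjusted p = 0.26). The median over the members was -0.02 at 5 mGy/h and -0.25 at 50 mGy/h, against -0.06 and -0.02 over all genes. The exposed pools lay above all controls for 1 of 10 members and below them for 2 at 5 mGy/h (24.0% and 25.7% of all genes), and above for 1 and below for 4 at 50 mGy/h (17.8% and 18.7% of all genes). In position the exposed pools stood at 7.32% ± 1.63 (SD, n = 3) at 5 mGy/h and 5.97% ± 5.06 (SD, n = 3) at 50 mGy/h, against 25.0% ± 1.81 in controls, differences of -17.7 and -19.1 percentage points (exact permutation test, two-sided p = 0.1 each, the smallest that 3 against 3 pools can give). The part of this in the values of oca2, slc24a5 and MITF-03732 was not tested.

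At 0.5 mGy/h and 24 hpf the medians of the members in the 2 batches lay on different sides of 0. In batch I10 the estimates of all 10 members were above 0 (median 0.45). The exposed pools lay above all controls for 3 of the 10 (tyr, slc45a2 and oca2), beside 11.8% of all genes. By edgeR 5 members had an unadjusted p under 0.05 (10.3% of all genes), and 0 were called, beside 0.0104% of all genes. The largest estimate was that of slc45a2, with 9.26, 10.9 and 12 CPM against 5.68 and 8.71 CPM (0.59 ± 0.20, adjusted p = 0.44). The 2 control pools are those whose replicate 2 was low for every member. In position the exposed pools stood at -7.08% ± 1.53 (SD, n = 3) and these controls at -10.8% ± 5.00 (SD, n = 2), a difference of 3.74 percentage points (exact permutation test, two-sided p = 0.3, the smallest possible being 0.1) that was 0.207 without control replicate 2 and 7.28 without control replicate 3. In batch I32 the median was -0.11, with 0 of 10 called beside 0.0694% of all genes, 1 member having an unadjusted p under 0.05 (13.4% of all genes). That member was tyr, with 21.7, 24.3 and 24.6 CPM against 25.1, 28.0, 30.1, 31.0 and 34.5 CPM (-0.33 ± 0.11, adjusted p = 0.15). Its exposed pools lay just below the lowest control, as those of 5.44% of all genes did. MITF-03732 was higher with exposure in the pools used of this batch too, at 13.3, 14.2 and 14.4 CPM against 11.1 to 13.2 CPM. Its exposed pools lay just above the highest control, as was so for 3.87% of all genes. The pools set aside as potential outliers had 10.2, 11.1 and 11.4 CPM with exposure and 13.5 CPM in the control. With them the groups overlapped. The difference in position was -2.56 percentage points in that batch (exact permutation test, two-sided p = 0.036). When the response was compared between the 2 batches, no member was called, beside 0.0101% of all genes (edgeR, lowest adjusted p = 0.435 for tyr). However, 8 of 10 members had an unadjusted p under 0.05, beside 7.36% of all genes.

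At 48 hpf MITF-03732 had the lowest adjusted p of the members at each of the 3 dose rates. It stood at 7.68, 8.41, 8.85 and 8.96 CPM in controls of batch I10 and at 11.3, 11.6 and 12.6 CPM at 0.5 mGy/h. In batch I17 it stood at 9.25, 9.77 and 9.87 CPM in controls, 11.8 and 15.1 CPM at 5 mGy/h and 13.5, 13.7 and 14.6 CPM at 50 mGy/h. In the 3 comparisons every exposed pool used lay above every control, as was so for 6.58%, 17.1% and 10.7% of all genes. The differences were 0.49 ± 0.10 (adjusted p = 0.032), 0.49 ± 0.16 (adjusted p = 0.14) and 0.56 ± 0.14 (adjusted p = 0.035), short of a 1.5-fold change and of the adjusted p of 0.01. However, the 5 mGy/h pool set aside as a potential outlier, replicate 8, had 8.28 CPM, below every control of batch I17.

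The counts at 48 hpf were 0 of 10 members at 0.5, 5 and 50 mGy/h, beside 0.0505%, 0.157% and 1.53% of all genes, and 4, 3 and 2 members had an unadjusted p under 0.05 (20.1%, 16.4% and 24.9% of all genes). TYRP1-29204 was higher at 0.5 mGy/h, 94.1, 98.7 and 108 CPM against 56.5, 57.3, 79.6 and 90.8 CPM (0.51 ± 0.14, adjusted p = 0.074). It was called once control replicate 5 of batch I10 was left out. The difference of tyr was 0.46 ± 0.21 at 5 mGy/h (adjusted p = 0.29) and, at 50 mGy/h, 0.46 ± 0.19 (adjusted p = 0.15), with pools that overlapped the controls at either dose rate. The medians over the members were 0.14, 0.19 and 0.14, against values between -0.02 and 0.02 over all genes. In position the exposed pools were behind their controls by 12.5 percentage points at 0.5 mGy/h (exact permutation p = 0.029, two-sided), and the difference was -27.2 at 5 mGy/h and -30.3 at 50 mGy/h (p = 0.1 each, the smallest possible). The part of the position in the values of MITF-03732 and the other melanin genes was not tested.

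At 96 hpf 0 of 10, 0 of 11 and 0 of 11 members were called at 0.5, 5 and 50 mGy/h, beside 0%, 0.275% and 0.162% of all genes, and 2, 1 and 1 had an unadjusted p under 0.05 (20.8%, 21.3% and 29.1% of all genes). The medians were 0.32 at 0.5 mGy/h and -0.35 and -0.19 at 5 and 50 mGy/h, in different batches. At 5 mGy/h all 11 estimates were below 0. Replicate 10 of that group lay below the mean of its stage and batch in all 10 members compared (mean log2 deviation -0.49). Its companions, replicates 11 and 9, lay slightly above that mean (0.07 and 0.04). The levels of pmela were 296, 415 and 452 CPM in I17 controls, 210, 334 and 334 CPM at 5 mGy/h and 236 and 311 CPM at 50 mGy/h, so that the groups overlapped (-0.39 ± 0.21 and -0.49 ± 0.24, adjusted p = 0.30 and 0.20).

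At 0.5 and 50 mGy/h the largest difference was that of TYRP1-29204. At 0.5 mGy/h it had 62.7, 76.4 and 124 CPM against 41.3, 52.8 and 60.1 CPM (0.77 ± 0.25, adjusted p = 0.22). At 50 mGy/h it had 40.5 and 59.5 CPM against 52.8, 81.1 and 105 CPM (-0.66 ± 0.29, adjusted p = 0.15). Oca2 lay below the controls in every exposed pool used at the 3 dose rates, with 3.38, 3.81 and 4.18 CPM against 4.49, 4.50 and 4.59 CPM at 0.5 mGy/h. In batch I17 it had 2.84, 3.63 and 3.67 CPM at 5 mGy/h and 3.76 and 4.33 CPM at 50 mGy/h against 4.45, 4.51 and 5.13 CPM. The 50 mGy/h pool set aside, replicate 9, had 4.68 CPM, within the range of these controls. None of the 3 differences of oca2 was called (adjusted p = 0.39, 0.16 and 0.48), and the share of all genes whose exposed pools all lay below the controls was 12.3%, 13.7% and 26.0%. At 0.5 mGy/h every exposed pool of TYRP1-29204 and of MITF-03732 lay above the controls used, as was so for 10.9% of all genes. MITF-03732 had 2.63, 2.93 and 3.18 CPM against 2.18, 2.26 and 2.62 CPM, and neither gene was called. The control set aside as a potential outlier, replicate 12, had 77.4 CPM of TYRP1-29204 and 3.44 CPM of MITF-03732. With it neither gene kept the groups apart.

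At this stage the retinal pigment epithelium list had medians of the same sign as those of the members. Its median log2 difference from controls was 0.40 at 0.5 mGy/h, while it was -0.59 at 5 mGy/h and its value for 50 mGy/h was -0.48. None of its 11 genes was called, beside 0%, 0.275% and 0.162% of all genes. By edgeR 3, 6 and 4 had an unadjusted p under 0.05, to be read beside the shares of all genes given above for this stage. Its summed level was 671 to 1145 CPM at 0.5 mGy/h against 570 to 724 CPM in I10 controls. In batch I17 it was 401 to 629 CPM at 5 mGy/h and 503 to 643 CPM at 50 mGy/h against 612 to 1073 CPM. In position the differences at 96 hpf were 4.27, -8.27 and -11.1 percentage points (exact permutation test, two-sided p = 0.1 each, the smallest possible). The part of either in the values of the melanin genes was not tested.

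The change between stages was also compared between exposed and control pools of batch I17. No member of 11 was called for the 24 to 48 hpf change at 5 or 50 mGy/h (0.778% and 1.28% of all genes called, 2 and 4 members and 20.9% and 21.2% of all genes at an unadjusted p under 0.05), nor for the 48 to 96 hpf change (0.862% and 2.67%, with 3 and 2 members and 19.9% and 25.5% of all genes at that p), by edgeR or DESeq2. Nearest to the threshold came the 24 to 48 hpf change of oca2 at 5 mGy/h, with an estimate 0.96 ± 0.29 above that of controls (adjusted p = 0.066), and of slc24a5 at 50 mGy/h, 0.93 ± 0.29 above it (adjusted p = 0.065). For the 48 to 96 hpf change it was MITF-03732 at 50 mGy/h (-0.70 ± 0.24, adjusted p = 0.068).

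Between 50 and 5 mGy/h themselves no member was called at 24, 48 or 96 hpf, beside 0%, 0% and 0.0589% of all genes (edgeR, and 0 members by DESeq2). No member had an unadjusted p under 0.05, as 6.24%, 3.11% and 3.75% of all genes did. The medians were -0.20, -0.03 and 0.08.

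Of the other pigment-cell lists, with 16, 33, 9, 9 and 11 genes, 5 genes were called in at least 2 exposure comparisons. All 5 were called at 24 hpf at both 5 and 50 mGy/h, which share controls. Of all genes, 9.89% and 5.88% were called at these dose rates, and the share called at both was not counted. Foxd3, a neural crest factor that in zebrafish holds back mitfa, had 22.3, 24.9 and 25.4 CPM in controls, 45.0, 51.5 and 56.3 CPM at 5 mGy/h and 40.6, 50.7 and 56.7 CPM at 50 mGy/h (1.08 ± 0.16 and 1.05 ± 0.16, adjusted p = 0.00075 and 0.00095, the latter 0.0103 without control replicate 1). The channel gene trpm1b had 28.2, 30.4 and 36.4 CPM in controls, 8.27, 10.6 and 15.2 CPM at 5 mGy/h and 8.35, 9.91 and 13.9 CPM at 50 mGy/h (-1.47 ± 0.23 and -1.54 ± 0.23, adjusted p = 0.0011 and 0.00085). The exposed and control pools of either gene were far apart.

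In batches I10 and I32 at 0.5 mGy/h neither gene was called. The retinal gene RGR (rgra, an opsin of the pigment epithelium) rose from 6.51, 7.48 and 11.6 CPM to between 24.0 and 24.5 CPM at 5 mGy/h and to 22.9, 26.5 and 27.2 CPM at 50 mGy/h (1.52 ± 0.20 and 1.60 ± 0.20, adjusted p = 0.00040 and 0.00027). The purine synthesis gene paics, from the iridophore list, rose by 0.95 ± 0.19 and 0.90 ± 0.19 (adjusted p = 0.0036 and 0.0059). The lipoprotein receptor gene scarb1, which takes up carotenoids in xanthophores, rose from 11.7, 12.6 and 13.5 CPM to 18.3, 21.8 and 26.6 CPM at 5 mGy/h and to 20.4, 23.8 and 25.2 CPM at 50 mGy/h (0.82 ± 0.17 and 0.90 ± 0.17, adjusted p = 0.0042 and 0.0035). At 48 hpf and 50 mGy/h it rose by 1.35 ± 0.15 (adjusted p = 0.0013). Calls of other genes of the xanthophore list at 24 hpf were all in the lower direction, at 5 and at 50 mGy/h. At 24 hpf the calls of paics and scarb1 were lost without control replicate 1 or 4, 5 mGy/h replicate 2 or 4 or 50 mGy/h replicate 3 (paics also without 50 mGy/h replicate 4), the highest adjusted p being 0.052 for paics and 0.034 for scarb1. At 48 hpf that of scarb1 was lost without control replicate 5, 7 or 8 or 50 mGy/h replicate 5 (highest adjusted p = 0.019).

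By list at 24 hpf, where 9.89% and 5.88% of all genes were called at 5 and 50 mGy/h, 1 of 15 melanophore and neural crest genes was higher and 1 lower at 5 mGy/h, and 1 higher at 50 mGy/h. Of 31 melanosome genes, 1 was lower at each. Of 8 iridophore genes, 2 were higher and 1 lower at 5 mGy/h, and 1 higher at 50 mGy/h. Of 9 xanthophore genes, 1 was higher at each and 1 and 2 lower. Of 11 retinal pigment epithelium genes, 1 was higher at each. At 48 and 96 hpf scarb1 was the only gene of these lists called with exposure, and at 0.5 mGy/h none was called at any stage. The summed level of the retinal pigment epithelium list was 122 to 172 CPM in controls, 170 to 208 CPM at 5 mGy/h and 148 to 188 CPM at 50 mGy/h. That of the melanophore and neural crest list was 724 to 741, 752 to 783 and 705 to 809 CPM. The melanosome list summed to 357 to 379, 348 to 369 and 333 to 347 CPM, and the xanthophore list to 327 to 401, 289 to 310 and 282 to 388 CPM. The summed level of the iridophore list did not overlap that of its controls, at 1151 to 1498 CPM in controls, 2033 to 2462 CPM at 5 mGy/h and 2042 to 2159 CPM at 50 mGy/h. Its median log2 difference was -0.22 and -0.23, and such a sum follows the most abundant genes of a list. Among single genes, 24.0% and 17.8% of all genes had every exposed pool above every control. At 48 hpf the sum was again higher with no overlap, at 1059 to 1370, 1543 to 1930 and 1388 to 2162 CPM, beside 17.1% and 10.7% of single genes. In batch I10 it was 1119 to 1358 CPM at 0.5 mGy/h against 835 to 1106 CPM, beside 6.58% of single genes. The part of these cell types in the values of the melanin genes was not tested.

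**Figure D4:**
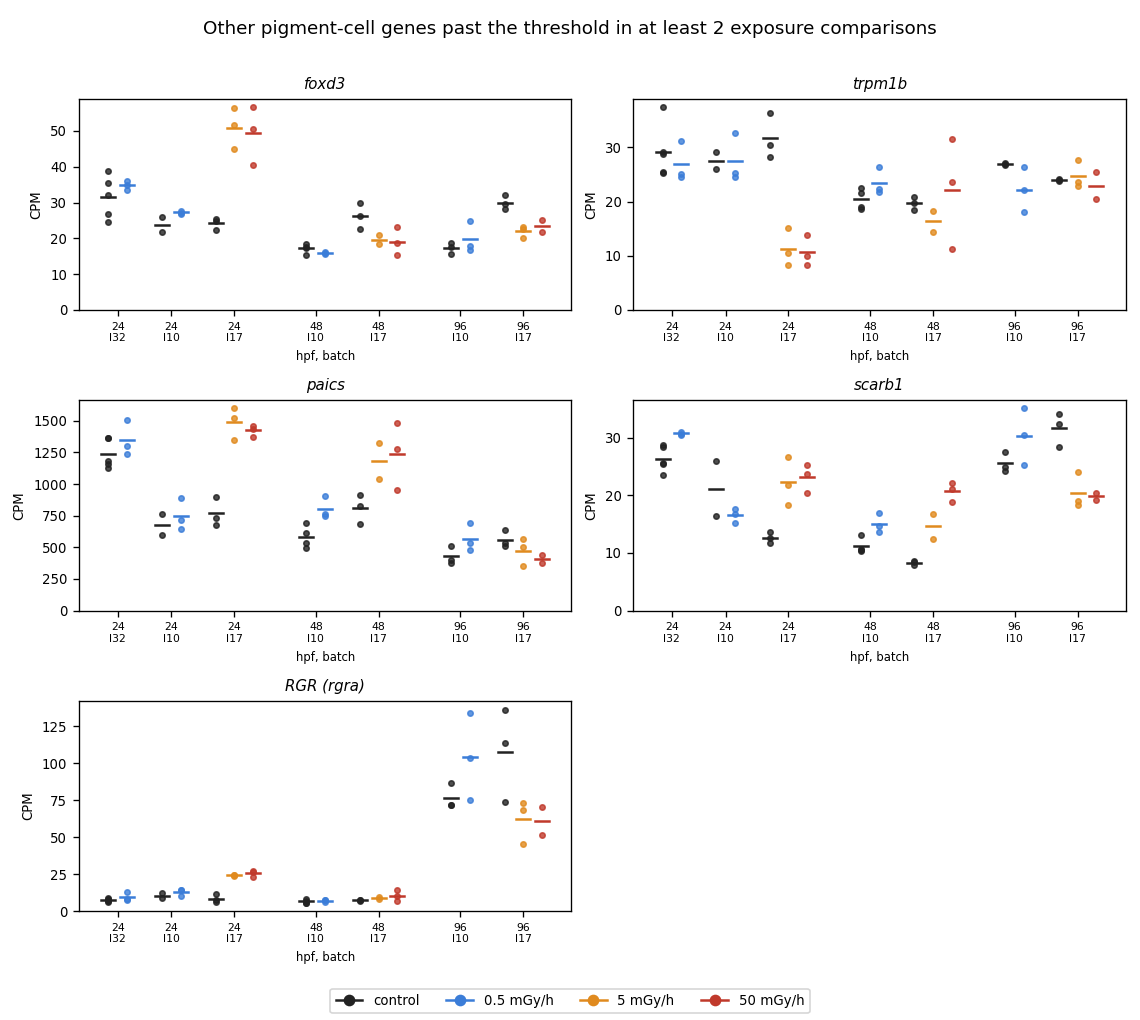
CPM (linear axis from 0) of 5 other pigment-cell genes in each of 51 pools, by stage and batch, with points for pools, short bars for group means and colours for the dose rate. At 24 hpf in batch I17 the 5 and 50 mGy/h pools of foxd3 lie at 40.6 to 56.7 CPM above controls at 22.3 to 25.4 CPM, and those of trpm1b at 8.27 to 15.2 CPM below controls at 28.2 to 36.4 CPM.

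Pools that were high for a melanin gene tended to be high for the others. After the mean of each stage and batch was subtracted, the correlation of a member with the mean of the others over 51 pools was 0.95 for dct, 0.92 for TYRP1-56151 and 0.92 for pmela, and fell to 0.49 for MITF-03732 and 0.40 for oca2. These correlations describe pools that share batches and stages, and no p is given. Furthest below the mean of their stage and batch, with all 10 members under it, lay control replicate 2 of batch I10 at 24 hpf (mean log2 deviation -0.61), 5 mGy/h replicate 10 at 96 hpf (-0.49) and 50 mGy/h replicate 1 at 24 hpf (-0.38). Furthest above lay 0.5 mGy/h replicate 10 at 96 hpf (0.41, 9 of 10 members above) and control replicate 9 at 96 hpf of batch I17 (0.38, 10 of 10). In 50 mGy/h replicate 8 at 48 hpf pmela reached 585 CPM against 287 and 373 CPM in its companions, and dct 287 CPM against 174 and 202 CPM, whereas oca2 was lowest there (5.20 against 6.15 and 8.21 CPM).

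Genes outside the list were ranked by the same measure. Over the 51 pools and among 13651 genes, the highest correlations with the mean of the members were those of atp2a1 (0.90), GPI (0.89), ACTA1 (0.87), MYL1 (0.86) and MYOM2 (0.86). Of these atp2a1 encodes the calcium pump of fast muscle, ACTA1, MYL1 and MYOM2 encode parts of the sarcomere and GPI encodes an enzyme of glycolysis. In control pools of batch I10 at 24 hpf atp2a1 had 5501 CPM in replicate 2 and 8493 CPM in replicate 3, and in the 50 mGy/h pools at 48 hpf it had 15342, 20092 and 25562 CPM, the last in replicate 8. Over the means of the 17 groups, which mostly carry the stage, the closest were si:dkey-251i10.2 (0.93), MPND (0.93), ACTA1 (0.93), HBE1 (0.93) and ENSDARG00000095715 (0.92).

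**Figure D5:**
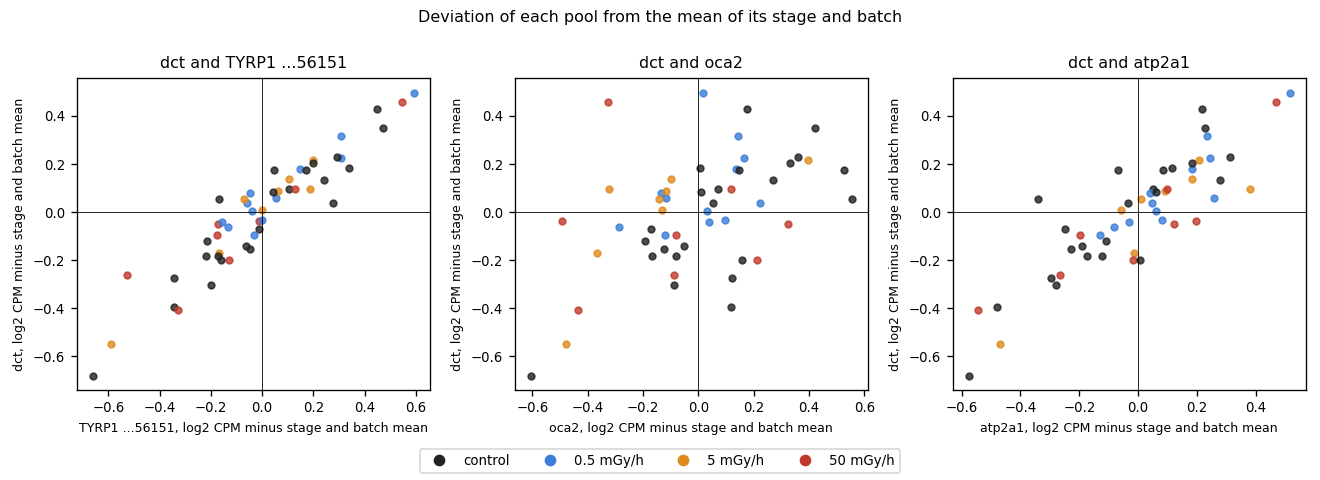
Log2 CPM of dct in 51 pools, minus the mean of the stage and batch, against the same measure of TYRP1-56151 (left), oca2 (middle) and the muscle gene atp2a1 (right), with colours for the dose rate. Dct followed TYRP1-56151 (r = 0.94) and atp2a1 (r = 0.87) more closely than oca2 (r = 0.49), over pools of every dose rate.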

How the data were processed

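Per the labels and the study's methods, the authors extracted total RNA from pools of entire AB zebrafish, made stranded mRNA libraries and mapped the reads to GRCz11 with STAR, counting reads per gene. The deposited values are raw counts per gene, 1 table a sample, each with an unstranded and 2 stranded columns. Counts on the sense strand of the library were used, since the opposite column held 1.83 to 2.23% as many counts. Reads that mapped to several places (14.9 to 25.5%) and the rows that name no gene stayed out of library sizes and tests.

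Samples were grouped by the labels' stage, dose rate and batch. Counts were tested with edgeR 4.0.16 in R 4.3.3 (filterByExpr with its minimum of 10 counts, TMM, quasi-likelihood test) in 1 fit per stage and batch for exposure, per batch for stages and per stage for batches. CPM used TMM factors over all 58 samples, and log2 CPM a prior count of 2. DESeq2 1.42.0, its size factors, no filter, the column without strand, an adjusted p of 0.05, a replicate block, all 58 samples and each pool left out were tried as alternatives. The swap of replicate 9 at 96 hpf followed a label that differed between the rows and columns of a clustering panel. The fit was tested on simulated data.

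The genes named are the melanin genes, genes of the pigment-cell lists called in at least 2 exposure comparisons, and the 5 genes most correlated with the members on each of 2 measures. Members and lists were chosen with earlier results of these data known. Gene symbols came from the reference table, and 3062 genes had none. Promoter and protein sequences were not used here.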

Additional observations from a re-analysis of the deposited data

Results flagged for a closer look

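Values of single pools were checked in the groups with 4 or 5 pools, and in 22 such checks chance alone marks about 1 in 20. Control replicate 8 of batch I10 at 48 hpf stood far above its 3 companions in tyr (34.1 CPM, the next at 26.8 CPM) and in pmela (428 CPM, the next at 333 CPM). No member differed in its response to exposure between stages or between batches past the threshold, nor in the control changes between batches I10 and I17. The lowest adjusted p among these 128 edgeR tests was 0.013, that of oca2 between batches from 24 to 48 hpf.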

How the results depend on the processing

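In the 10 exposure comparisons the count of melanin genes called stayed 0 with DESeq2, its size factors, no filter, counts without strand and, where it applied, all samples, the swap at 96 hpf and the fit of both 0.5 mGy/h batches at 24 hpf. At an adjusted p of 0.05 it was 1 at 5 and 1 at 50 mGy/h at 24 hpf (oca2 in each). Leaving out a pool gave 0 to 1 at 48 hpf and 0.5 mGy/h and 0 elsewhere. Between controls from 48 to 96 hpf in batch I17 the count of 5 became 3 with DESeq2, with its size factors and with all samples, and ranged from 3 to 5 with a pool left out. For batch I10 against I32 at 24 hpf it became 5 with all samples, and ranged from 0 to 5 with a pool left out, 0 to 9 for I17 against I10 and 1 to 4 for I17 against I32. For I17 against I10 at 48 and 96 hpf the count of 0 became 1 with DESeq2 and 1 with no filter, 1 and 2 at an adjusted p of 0.05, and 0 to 1 with a pool left out. Differences in position at 24 hpf and 0.5 mGy/h in batch I32 (-2.90 to -1.97 percentage points) and at 48 hpf and 0.5 mGy/h (-13.8 to -10.4) kept their direction with a pool left out, while 6 of 8 and 7 of 7 had a permutation p over 0.05, which fewer pools alone can bring about. Among the other genes the block ended the calls of paics and scarb1 at 5 mGy/h and 24 hpf (adjusted p = 0.015 and 0.020) and of scarb1 at 48 hpf and 50 mGy/h (0.053), and with all samples the last had 0.012.

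The correlation of the deviations of same-numbered pools ran from -0.556 to 0.655 over comparisons. In no comparison with 3 or more pairs was every one over 0.1. Comparisons with 1 or 2 pairs are too few to decide whether pools pair. Among these, every value was over 0.1 for 50 against 5 mGy/h (0.200 and 0.211 at 24 hpf, 0.123 at 48 hpf, 0.469 and 0.655 at 96 hpf). The same held for 5 mGy/h against controls at 48 hpf (0.204 and 0.434), while the others held a value below 0. With the replicate number as a block the count of melanin genes called stayed 0 in 9 exposure comparisons and in the 3 comparisons of 50 with 5 mGy/h. At 24 hpf in batch I10 the block left no degrees of freedom, and it was not run. The planned promoter motif search was not run, as no sequences were at hand. Groups held 2 to 5 pools, and MITF-37833 had at most 25 counts, which limits what could be seen.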
